A study of Homo sapiens with 12 samples.

Results

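Histone acetyltransferases place acetyl groups on the tails of histones, a mark of active promoters and enhancers, and KAT2A (GCN5) is the enzyme that the study ties to the interferon-induced lncRNA lncMX1-215. The genes described here are KAT2A and 8 other lysine acetyltransferases, KAT2B, EP300, CREBBP, KAT5, KAT6A, KAT6B, KAT7 and KAT8, chosen by symbol from the 60099 genes of the deposited table. All 9 were found, and all 9 passed the filter on low counts, as did 19944 of the 60099 genes. Cal27 and HN30 are established head and neck squamous cell carcinoma (HNSCC) lines. Both were left untreated (control) or received IFNα, a type I interferon, at 20 or 200 ng/ml for 24 h. The 12 samples form 2 line sets, named A-C and D-F after the letters of their samples, with 2 replicates for each dose in each set. The groups are the A-C control, A-C low dose (20 ng/ml), A-C high dose (200 ng/ml), D-F control, D-F low dose and D-F high dose. No source used here says which set is Cal27 and which is HN30, and no group carries an engineered allele.

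Acetyltransferases work inside complexes that set where they act. KAT2A and its paralog KAT2B (PCAF) exchange for each other in SAGA and ATAC and acetylate histone H3, mainly at lysine 9. EP300 (p300) and CREBBP (CBP) are large paralogous coactivators that acetylate H3 lysine 27 and are recruited by many transcription factors. KAT5 (TIP60) is the catalytic subunit of NuA4/TIP60, and the MYST family members KAT6A (MOZ), KAT6B (MORF) and KAT7 (HBO1) share BRPF and ING subunits and acetylate H3, while KAT8 (MOF) acetylates H4 lysine 16 in the MSL and NSL complexes. Type I interferon raises the transcription of genes that carry the interferon-stimulated response element (ISRE) in their promoters.

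Total estimated counts ran from 10517448 to 16056734 per sample, and the 4 controls all lay above the 4 high dose samples in this total. All 10 genes of an interferon check list rose at 200 ng/ml, and MX1, an antiviral GTPase, went from 66.2 and 71.2 TPM, a transcript level that the authors scaled for length and depth, in the A-C controls to 1137 and 1172 TPM, and from 29.9 and 31.1 TPM in the D-F controls to 1134 and 1192 TPM. The transcript lncMX1-215 rose from 5.42 to 6.91 TPM in the A-C controls to 158 to 191 TPM at 200 ng/ml, and from 2.78 to 3.85 TPM in the D-F controls to 154 to 162 TPM. The summed level of 8 squamous epithelial markers was 2088 to 2673 TPM in A-C and 886 to 1142 TPM in D-F. KRT14, a basal keratin among them, was at 41.9 to 49.2 TPM in A-C and at most 0.254 TPM in D-F. KRT5, also in the sum, was at 914 to 1248 TPM in A-C and 237 to 263 TPM in D-F. Between the controls 5 of the 8 were lower in D-F and 0 higher (62.5%, beside 46.4% of all genes). Over all doses the ranges of DSG3 (15.5 to 21.4 TPM in A-C and 18.0 to 23.3 TPM in D-F), CDH1 (126 to 184 and 157 to 207 TPM) and EPCAM (206 to 270 and 172 to 271 TPM) overlapped. Those of KRT6A also did. The 6 markers of blood cells, fibroblasts and endothelium summed to between 3.48 and 13.5 TPM, nearly all of it COL1A1, and CD3E was at 0 in every sample. At 200 ng/ml 4 of the 8 squamous markers rose, beside 9.55% of all genes passing in either direction. KRT6A and TP63 kept their calls in 17 of 18 settings, KRT14 in 10 and DSG3 in 3. KRT14 had 0 counts in the D-F controls and 2 and 3 at 200 ng/ml. In A-C it was at 42.7 to 44.4 TPM in the controls and 46.7 to 49.2 TPM at 200 ng/ml. TP63 lay at 237 to 256 TPM in the A-C controls and 393 to 452 TPM at 200 ng/ml. In D-F its ranges, 109 to 132 and 120 to 126 TPM, overlapped. COL1A1, the 1 gene of the other list to pass the filter, did not pass the test. The part of these differences in the results below was not tested. Samples of the same line set correlated at 0.94 to 0.976 over log values of 13033 genes, and samples of different sets at 0.678 to 0.717. The labels do not say whether replicates were separate cultures, so the p-values measure the spread between these samples, which may be technical.

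All 9 acetyltransferases were expressed in both line sets, over a wide range of levels. EP300 stood highest in TPM, with 75.0 ± 13.5 TPM in A-C and 57.7 ± 5.97 TPM in D-F (SD, n = 6, all doses together). In A-C it was followed by KAT5 (65.0 ± 5.72 TPM) and CREBBP (58.1 ± 9.23 TPM), and the ranges of these 3 genes overlapped from each to the next. KAT2A (35.6 ± 2.44 TPM) and KAT7 (32.7 ± 8.02 TPM) came next and also overlapped, then KAT8 (22.6 ± 2.39 TPM) and KAT6A (19.6 ± 3.45 TPM), which again overlapped. KAT6B stood apart at 9.78 ± 1.07 TPM, and KAT2B was lowest in A-C at 2.00 ± 0.687 TPM, with no overlap with KAT6B.

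In D-F the order was EP300, CREBBP (54.5 ± 7.19 TPM), KAT5 (53.0 ± 3.99 TPM), KAT2A (38.4 ± 7.45 TPM), KAT6A (37.0 ± 7.13 TPM), KAT7 (31.6 ± 5.50 TPM), KAT8 (26.4 ± 3.79 TPM), KAT2B (15.6 ± 2.85 TPM) and KAT6B (12.6 ± 2.02 TPM). Each gene overlapped the next in this order except KAT8 and KAT2B. Over all doses together, KAT2B was last in A-C but above KAT6B on average in D-F. In the controls alone KAT2B was last in both sets, with a mean of 12.8 TPM in D-F against 14.3 TPM for KAT6B. KAT6A lay below KAT8 on average in A-C and above it in D-F. This held in the control means, at 18.4 against 23.2 TPM in A-C and 33.8 against 29.7 TPM in D-F. In these bulk samples a difference in level between cells and a difference in the number of cells with that level cannot be told apart.

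**Figure D1:**
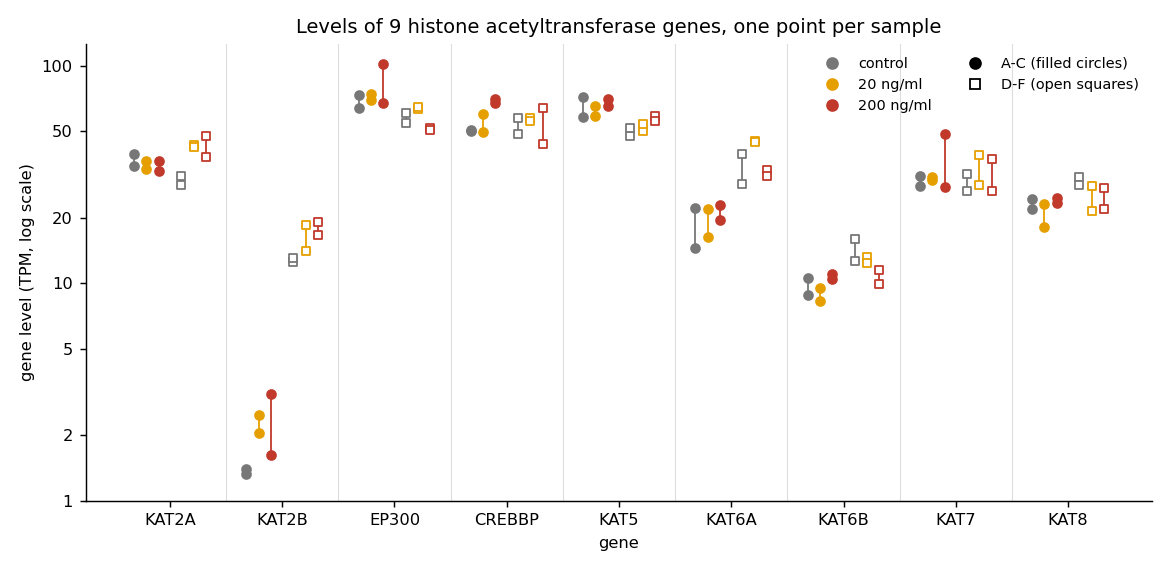
Level of each acetyltransferase gene in every sample, in TPM on a log axis; filled circles are A-C, open squares D-F, colours the IFNα dose, and each line joins the 2 replicates of a group. KAT2B lies between 1.32 and 3.08 TPM in A-C and between 12.5 and 19.1 TPM in D-F, whereas EP300, CREBBP and KAT5 lie above 43 TPM in all samples.

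The first comparison asked how the line sets differ before treatment. Of the 9 acetyltransferases, 5 differed between the untreated controls at an adjusted p of at most 0.05 (edgeR quasi-likelihood test, Benjamini-Hochberg adjustment over 19944 genes), 3 of them higher in D-F and 2 lower. The share among all genes was 46.4%, so that about as many members differed as genes in general. Only KAT2B differed by at least 2-fold, where the share among all genes was 26.6%.

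KAT2B, the paralog of KAT2A, differed most. Its level was 1.32 and 1.41 TPM in the A-C controls and 12.5 and 13.1 TPM in the D-F controls, from 33 and 64 estimated counts against 347 and 369. The fitted difference on counts was 6.83-fold higher in D-F, with a 95% interval of 4.30 to 10.9 (log2 fold change 2.77, SE 0.30, adjusted p = 5.7e-05 by edgeR). Over all doses the 6 samples of D-F lay above the 6 of A-C.

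KAT6A, a MYST family acetyltransferase on chromosome 8, had 14.6 and 22.2 TPM in the A-C controls and 39.1 and 28.5 TPM in the D-F controls. The groups did not overlap in TPM, but on the depth-scaled counts that were tested they did, with 61.3 and 93.4 CPM in A-C and 155 and 91.3 CPM in D-F. The log2 fold change was 0.67 (SE 0.25, edgeR adjusted p = 0.047). KAT6B, its paralog, had 8.82 and 10.5 TPM against 16.0 and 12.7 TPM, with a log2 fold change of 0.41 (SE 0.14, edgeR adjusted p = 0.041). Neither call was firm. That of KAT6A held without the second control of either set and was lost without any other sample, with an adjusted p of 0.45 without the first D-F control and 0.28 without the first A-C control. That of KAT6B held without the second control of either set or the first D-F low dose sample and was lost without any other, with an adjusted p of 0.30 and 0.25 without the same first controls.

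EP300 was lower in D-F. Its controls held 73.8 and 64.0 TPM in A-C and 54.8 and 60.7 TPM in D-F, and on counts EP300 was 1.45-fold lower in D-F (log2 fold change −0.54, SE 0.08, edgeR adjusted p = 0.00036). KAT2A was at 34.5 and 39.5 TPM in the A-C controls and at 28.3 and 31.2 TPM in the D-F controls, 1.41-fold lower in D-F on counts (log2 fold change −0.49, SE 0.15, edgeR adjusted p = 0.023). That call was lost without the second A-C control (adjusted p = 0.16) and without the first D-F control (adjusted p = 0.15). CREBBP, KAT5, KAT7 and KAT8 did not pass, with log2 fold changes between −0.29 and 0.14. The value of KAT5 was not firm either. Its A-C controls were at 43.7 and 65.7 CPM, and with a sample left out its log2 fold change lay between −0.56 and 0.04.

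Averaging the line difference over the 3 doses, a comparison added after the data were seen, used all 12 samples and gave 6 members past the threshold against a share of 64.8% among all genes. KAT2B (log2 fold change 2.87), KAT6A (0.62) and EP300 (−0.59) passed as they had in the controls, and KAT5 (−0.41), KAT7 (−0.25) and CREBBP (−0.20) were added. KAT2A and KAT6B no longer passed, with values of −0.05 (95% interval −0.24 to 0.15, adjusted p = 0.66) and 0.15 (95% interval −0.04 to 0.34, adjusted p = 0.14). For these 2 genes the treated samples of D-F did not keep the distance seen between the controls.

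**Figure D2:**
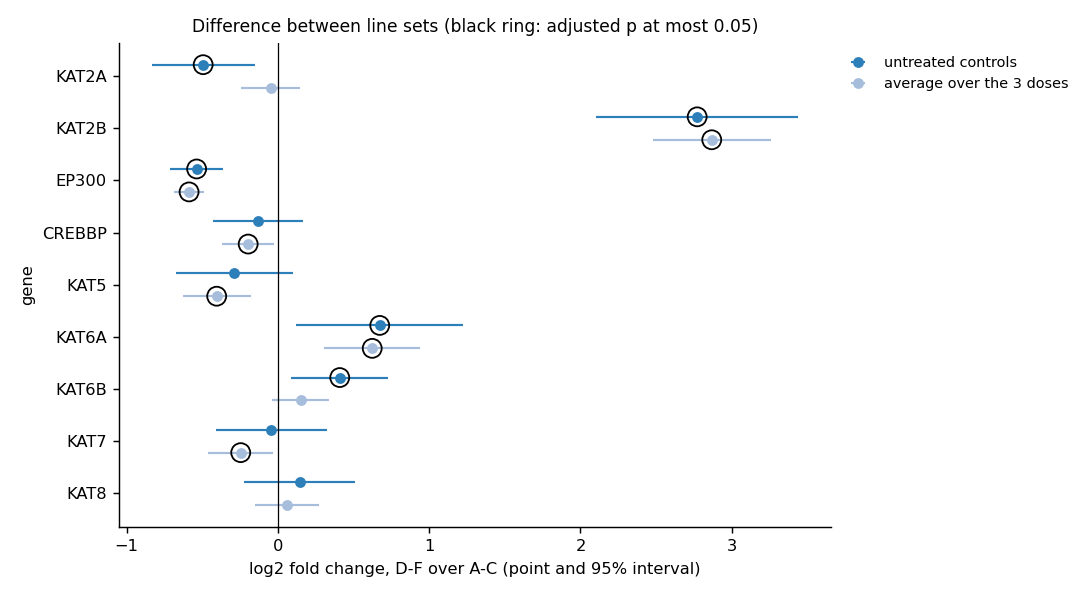
Log2 fold change of each acetyltransferase between line sets, D-F over A-C, with its 95% interval, for the untreated controls (dark) and averaged over the 3 doses (light); rings mark an adjusted p of at most 0.05 (edgeR). KAT2B stands apart at 2.77 and 2.87, EP300 is near −0.55 in both, and KAT2A moves from −0.49 to −0.05.

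The balance within each pair of paralogs was compared as a share of their summed TPM. KAT2A made up 92.2% to 96.6% of KAT2A plus KAT2B in the 6 samples of A-C and 66.6% to 75.1% in the 6 of D-F. The mean share was 94.7% ± 1.67 against 70.9% ± 3.16 (SD, n = 6), a difference of −23.8 percentage points (exact permutation test within doses, two-sided, p = 0.00926, the smallest that this design can give). EP300 made up 56.3% ± 4.44 of EP300 plus CREBBP in A-C and 51.5% ± 4.02 in D-F, and this difference of −4.80 points did not pass (exact permutation p = 0.0926). It did on estimated counts in place of TPM (−6.07 points, exact permutation p = 0.00926).

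With dose, the KAT2A share changed by −1.10 percentage points from control to 200 ng/ml (exact permutation p = 0.556) and the EP300 share by −3.05 points (exact permutation p = 0.444). Exchanging doses within line sets gives 36 arrangements, so that no p under 0.0556 was possible. Both differences turned sign in alternative settings and are given no direction.

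The second comparison asked whether IFNα changed the acetyltransferase genes. At 200 ng/ml, 0 of the 9 passed in the fit of both line sets by edgeR, while 9.55% of all genes did. At an unadjusted p under 0.05 there were 0 members, beside 4759 of all 19944 genes. DESeq2 also passed 0 of 9, with 0 at an unadjusted p under 0.05. With a change of at least 2-fold required, the share of all genes was 2.14%. The log2 fold changes lay between −0.19 (KAT6B) and 0.21 (KAT2B), with a median of 0.14, beside a median of −0.01 over all genes tested. For this average of both sets the 95% intervals allowed at most a 1.60-fold rise (KAT2B) and a 1.33-fold fall (KAT6B). Within a set they were wider, up to a 1.76-fold rise and a 1.60-fold fall in A-C. In D-F they reached a 1.96-fold rise and a 1.77-fold fall.

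The low dose gave the same count. At 20 ng/ml 0 of 9 passed by edgeR and 0 by DESeq2, against 3.93% of all genes by edgeR. By either tool 0 had an unadjusted p under 0.05, beside 3357 of all 19944 genes by edgeR. The log2 fold changes lay between −0.21 (KAT6B) and 0.24 (KAT2B). Between 200 and 20 ng/ml 0 of 9 passed with edgeR or DESeq2, where 0.135% of all genes did with edgeR. Again 0 had an unadjusted p under 0.05 by either tool, beside 1846 of all 19944 genes with edgeR. The comparisons of both doses share the same controls.

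Within A-C alone, 0 of 9 members passed at 200 ng/ml with edgeR and 0 with DESeq2, against 7.18% of all genes with edgeR. At an unadjusted p under 0.05 there were 1 and 3 members, beside 4447 of all 19944 genes with edgeR. The largest value was that of KAT7 (log2 fold change 0.44, 95% interval 0.07 to 0.81, edgeR adjusted p = 0.15), whose treated samples at 97.7 and 116 CPM lay above the controls at 82.6 and 75.2 CPM. In TPM the treated samples, at 27.7 and 48.8, lay on either side of the controls at 31.1 and 28.1. CREBBP had 50.2 and 50.6 TPM in the A-C controls and 70.3 and 67.4 TPM at 200 ng/ml, with no overlap, but on counts its log2 fold change was 0.28 (95% interval −0.01 to 0.58, edgeR adjusted p = 0.25). EP300 gave 0.17 in the same fit (edgeR adjusted p = 0.23). KAT2A had a log2 fold change of −0.11 in A-C (95% interval −0.45 to 0.23, edgeR adjusted p = 0.74), and its groups overlapped.

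Within D-F, 0 of 9 passed with edgeR against 5.84% of all genes, and DESeq2 passed 2, KAT2A and KAT6B. With edgeR 2 of 9 reached an unadjusted p under 0.05, as did 3734 of all 19944 genes. KAT2A had 28.3 and 31.2 TPM in the D-F controls, 43.2 and 42.2 TPM at 20 ng/ml and 38.0 and 47.7 TPM at 200 ng/ml, so that all 4 treated samples lay above both controls. Its fitted fold at 200 ng/ml was 1.44 (95% interval 1.14 to 1.82), with an adjusted p of 0.084 by edgeR and 0.037 by DESeq2. At 20 ng/ml its log2 fold change was 0.55 (SE 0.15, edgeR adjusted p = 0.099). KAT6B moved the other way, from 16.0 and 12.7 TPM in the controls to 13.2 and 12.5 TPM at 20 ng/ml and 9.93 and 11.5 TPM at 200 ng/ml, where the log2 fold change was −0.50 (95% interval −0.82 to −0.18, adjusted p = 0.082 by edgeR and 0.038 by DESeq2). Over the other settings run, the adjusted p of KAT2A in D-F at 200 ng/ml ran from 0.036 to 0.45, and that of KAT6B from 0.038 to 0.39. The separation seen for KAT2A was shared by its paralog KAT2B. The D-F controls of KAT2B held 12.5 and 13.1 TPM. Its low dose samples held 18.6 and 14.0 TPM, and its high dose samples 19.1 and 16.6 TPM. For the high dose edgeR gave KAT2B a log2 value of 0.38 (95% interval −0.21 to 0.97, adjusted p = 0.52). The share of all genes with such a separation was not determined.

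The difference in response between the line sets was itself tested. At 200 ng/ml 0 of 9 members passed with edgeR and 0 with DESeq2, against 1.88% of all genes with edgeR. At an unadjusted p under 0.05 there were 2 by either tool, beside 3539 of all 19944 genes with edgeR. KAT2A had the largest positive difference (D-F minus A-C, log2 0.63, 95% interval 0.15 to 1.11, edgeR adjusted p = 0.17) and KAT6B the largest negative one (−0.62, 95% interval −1.08 to −0.17, edgeR adjusted p = 0.15). At 20 ng/ml 0 of 9 passed with edgeR and 0 with DESeq2, against 0.371% of all genes with edgeR. At an unadjusted p under 0.05 there was 1 by either tool, beside 2098 of all 19944 genes with edgeR. That 1 was KAT2A, at 0.71 (95% interval 0.23 to 1.19, edgeR adjusted p = 0.26).

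**Figure D3:**
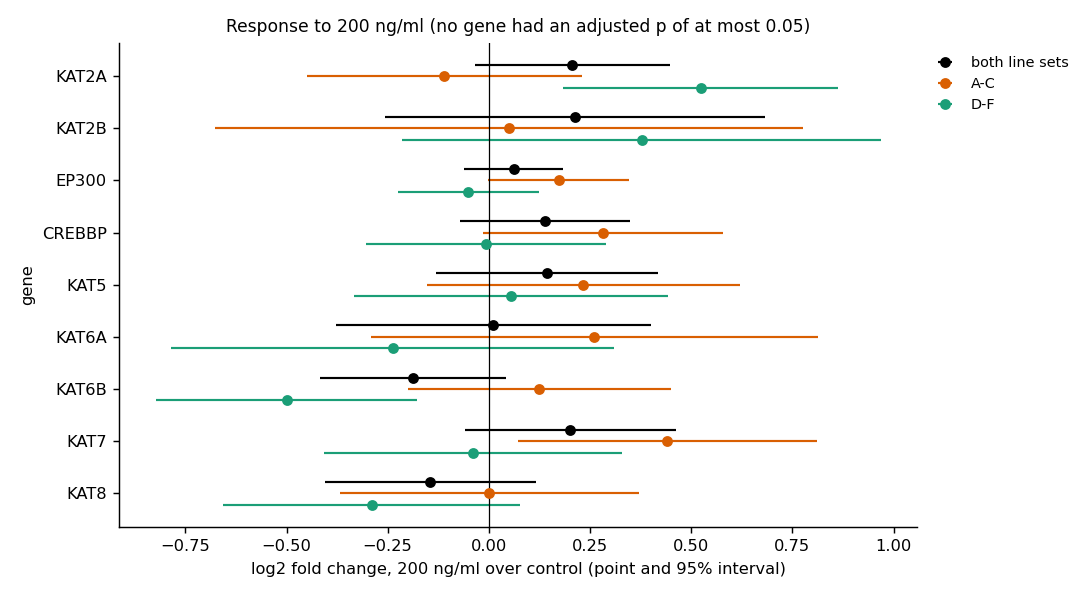
Log2 fold change of each acetyltransferase from control to 200 ng/ml IFNα with its 95% interval, in both line sets together (black), in A-C (orange) and in D-F (green). All points lie between −0.50 and 0.52, and KAT2A and KAT6B are the genes whose D-F interval leaves 0 on the right and on the left.

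KAT2A lies on chromosome 17, at chr17:42113108-42121358 on the minus strand of GRCh38. The deposited table listed 5 KAT2A transcripts, of which 4 passed the filter. KAT2A-201, which GENCODE 29 annotates as protein coding, has 18 exons and 3109 bases. KAT2A-202 is annotated as a target of nonsense-mediated decay, the pathway that degrades mRNAs with an early stop codon, and has 18 exons and 2990 bases. In KAT2A-202 exon 6 runs on by 191 bases past the end it has in KAT2A-201, and 1 base lies between that junction and the annotated stop codon. The stretch below gives the last 30 bases of the shared exon and the first 60 bases of the extension, at chr17:42119185-42119274 on the minus strand, read from the GENCODE 29 transcripts, with the stop codon TAA in capitals. It is shown because the KAT2A level in these samples is divided between the forms with and without it.
KAT2A-202 exon 6 junction: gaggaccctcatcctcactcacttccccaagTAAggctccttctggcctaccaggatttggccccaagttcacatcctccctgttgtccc

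The decay form held more of the KAT2A level than any other single transcript in every sample but the first D-F control. KAT2A-202 held 18.8 and 23.3 TPM in the A-C controls, against 9.66 and 11.1 TPM for KAT2A-201. Over all 12 samples KAT2A-202 made up between 36.1% and 60.7% of KAT2A TPM and KAT2A-201 between 21.6% and 41.3%. The first D-F control was the single sample in which the coding form exceeded the decay form, with 11.7 TPM against 10.2 TPM.

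In D-F neither form passed the test at 200 ng/ml. KAT2A-202 had 10.2 and 15.1 TPM in the controls, 23.3 and 25.6 TPM at 20 ng/ml and 21.6 and 28.4 TPM at 200 ng/ml, without overlap between controls and treated samples. KAT2A-201 had 11.7 and 10.9 TPM, then 14.5 and 12.3 TPM, then 11.1 and 13.7 TPM, so that its values lay above the controls at 20 ng/ml and overlapped them at 200 ng/ml. The log2 fold change at 200 ng/ml in D-F was 0.85 for KAT2A-202 (SE 0.29, edgeR adjusted p = 0.65 over 75876 transcripts) and 0.01 for KAT2A-201 (SE 0.26, edgeR adjusted p = 1.0), and the difference between these values was not tested. In A-C KAT2A-202 had 17.4 and 16.5 TPM at 200 ng/ml, both under the controls.

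The division rests on little sequence. Of the 31-base words of KAT2A-202, 7.47% do not occur in KAT2A-201, and 11.04% of those of KAT2A-201 do not occur in KAT2A-202, so that most reads of the gene fit both forms and the deposited counts are estimates. The libraries were made from rRNA-depleted total RNA, which also holds RNA that is not fully spliced, and reads of unspliced RNA over this exon were not separated from KAT2A-202 here.

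**Figure D4:**
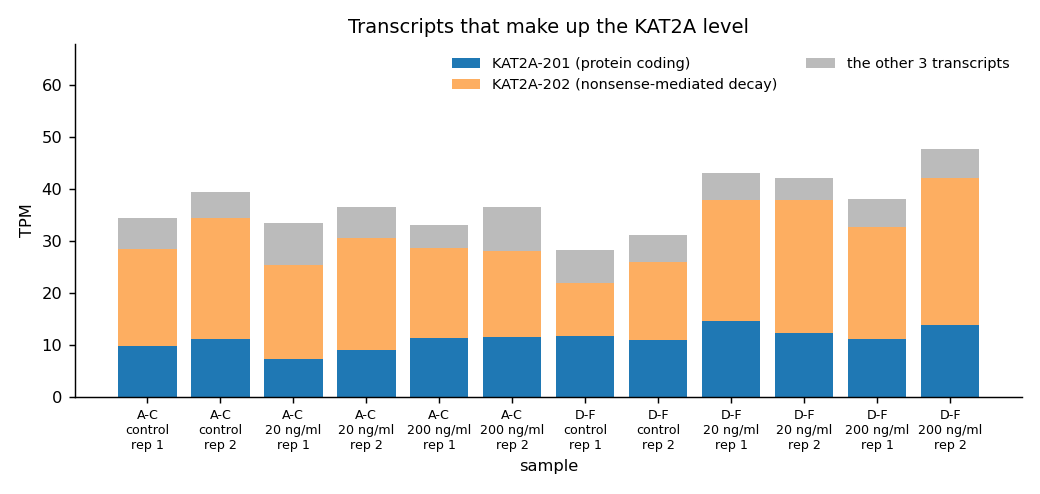
TPM of the KAT2A transcripts in each sample, stacked, with the protein coding KAT2A-201 in blue, the decay form KAT2A-202 in orange and the other 3 transcripts in grey. The blue part stays between 7.21 and 14.5 TPM, and the orange part goes from 10.2 and 15.1 TPM in the D-F controls to between 21.6 and 28.4 TPM in the treated D-F samples.

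The genes next to KAT2A were examined because overlapping or adjacent genes can share reads. DHX58 (LGP2), an interferon-induced receptor of the RIG-I family, lies on the same strand 374 bases past the 3′ end of KAT2A, the smallest gap among the 10 neighbours of acetyltransferase genes that did not overlap them. DHX58 rose from 14.2 and 15.0 TPM to 60.2 and 59.5 TPM at 200 ng/ml in A-C and from 4.30 and 2.54 TPM to 40.5 and 41.7 TPM in D-F, a 6.15-fold rise in the fit of both sets (log2 fold change 2.62, SE 0.09, edgeR adjusted p = 9.0e-08). KAT2A went from 34.5 and 39.5 TPM to 33.0 and 36.5 TPM in the same A-C samples, where DHX58 rose 4.73-fold. Whether reads of DHX58 entered the KAT2A counts in D-F was not tested.

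AC099811.2, an annotated gene at chr17:42119674-42154916, overlaps the 5′ part of KAT2A on the same strand. Its level varied from 0.430 to 35.3 TPM, with 3.78 and 2.19 TPM in the D-F controls, 30.4 and 35.3 TPM at 20 ng/ml, and 21.4 and 0.430 TPM at 200 ng/ml. The replicates at 200 ng/ml thus lay far apart. The KAT2A count is uncertain to the extent that reads of their shared stretch were divided between both genes, and the share of AC099811.2 in the higher KAT2A level of D-F at 20 ng/ml was not tested.

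**Figure D5:**
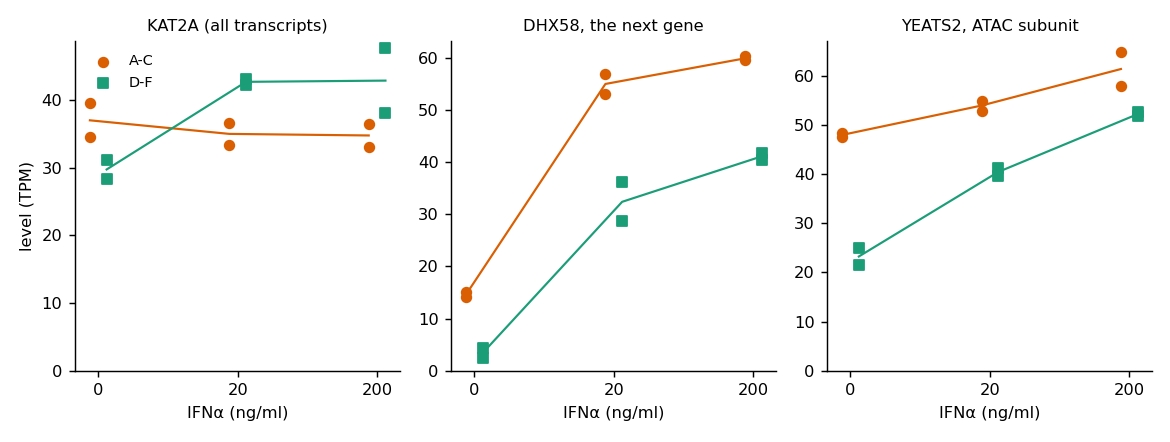
Levels in TPM at 0, 20 and 200 ng/ml IFNα of KAT2A, of its neighbour DHX58 and of YEATS2, a subunit of the ATAC complex, with a point per sample and a line through the group means, A-C in orange and D-F in green. DHX58 rises in both sets, KAT2A lies above its controls only in D-F, and YEATS2 goes from 21.5 and 25.0 TPM to 51.8 and 52.7 TPM in D-F.

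Among the nearest genes on either side of the 9 acetyltransferase genes, 14 of 18 passed the filter, and 2 of these passed the test at 200 ng/ml, where 9.55% of all genes did. The other was ANK1, which encodes the membrane adaptor ankyrin 1 and lies 32716 bases from KAT6A. It had a log2 fold change of −0.75 (SE 0.15, edgeR adjusted p = 0.014). KAT5 overlaps RNASEH2C (17.4 to 34.9 TPM) and KAT7 overlaps FAM117A (5.80 to 13.6 TPM). Neither neighbour passed at 200 ng/ml, with log2 fold changes of −0.07 and −0.49. Between the controls RNASEH2C was lower in D-F (log2 fold change −1.23, SE 0.16, edgeR adjusted p = 0.00019). KAT5 was at −0.29 there and −0.41 over all doses. FAM117A did not pass between the controls (0.55, edgeR adjusted p = 0.056), where KAT7 was at −0.04. Whether shared reads entered the line difference of KAT5 was not tested. SNORD112, which overlaps KAT6A, read 0 TPM in every sample, under the 1 TPM asked of a neighbour. Its values were taken by gene symbol and may be those of another locus, and it counts among the 18 but not the 14.

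The promoter of KAT2A was searched for the ISRE. The window of 300 bases (250 before and 50 after the start) at chr17:42121318-42121617 on the minus strand, from RefSeq on GRCh38.p14, is shown because it precedes the gene the study ties to lncMX1-215, with any match in capitals. The letters searched on both strands were GAAANNGAAA, the ISRE core.
KAT2A promoter: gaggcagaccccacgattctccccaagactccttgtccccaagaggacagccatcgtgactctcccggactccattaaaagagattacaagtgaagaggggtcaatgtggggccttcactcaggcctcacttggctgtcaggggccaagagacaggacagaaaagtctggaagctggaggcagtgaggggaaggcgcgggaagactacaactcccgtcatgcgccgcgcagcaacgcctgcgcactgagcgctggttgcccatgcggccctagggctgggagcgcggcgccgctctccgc
No match was present. A window was given for 7 of the 9 genes, 10 windows in all, with none for KAT6A or KAT8, and 0 of the 10 held a match, against 3.57% of 35116 windows with the ISRE core. Of the 3 windows of MX1, 2 held the ISRE core.

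At the transcript level, 57 transcripts of the 9 genes passed the filter, and 0 of them changed at 200 ng/ml by edgeR (0 at an unadjusted p under 0.05) or by DESeq2 (0 at an unadjusted p under 0.05), where 0.597% of all transcripts did by edgeR. Between line sets over all doses, 7 of the 57 passed, against 16.0% of all transcripts. The leading ones were EP300-201, the full coding transcript of EP300 (log2 fold change −0.59, SE 0.06, edgeR adjusted p = 0.00069), and KAT2B-201, the coding transcript of KAT2B (2.92, SE 0.27, edgeR adjusted p = 0.00054).

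KAT2B-201 had 0.79 and 1.3 TPM in the A-C controls and 7.64 and 7.69 TPM in the D-F controls, so the difference in KAT2B holds for its coding form. KAT6A-202 (0.98, SE 0.25, edgeR adjusted p = 0.039) and KAT6A-208 (1.04, SE 0.25, edgeR adjusted p = 0.027), both annotated as protein coding, passed as well. The remaining 3, named after their values were seen, were KAT8-201, KAT6A-204 and KAT2B-204, all higher in D-F.

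The genes differed in how much of their level came from coding transcripts. KAT6B (93.0% in A-C and 89.0% in D-F), KAT5 (81.8% and 77.5%) and KAT6A (81.8% and 76.5%) drew most of their TPM from transcripts annotated as protein coding. KAT2A (28.1% and 32.9%) and KAT8 (15.7% and 30.1%) drew less than the other members did. In KAT8 the retained-intron transcript KAT8-205 held 11.4 and 14.7 TPM in the A-C controls and 16.2 and 17.6 TPM in the D-F controls, more than any other KAT8 transcript of these groups that reached 20% of the gene's level. On coding transcripts alone, KAT2A came to 9.99 ± 1.69 TPM in A-C and 12.4 ± 1.47 TPM in D-F, and KAT8 to 3.61 ± 1.16 TPM and 7.94 ± 3.12 TPM (SD, n = 6). KAT2A then lay on average below KAT6A (15.8 and 28.4 TPM) and KAT7 (24.5 and 23.7 TPM). KAT5 (53.3 and 41.0 TPM) then lay on average above EP300 (43.6 and 29.4 TPM), which stood highest in gene totals. KAT2B-201 alone was 1.05 ± 0.32 TPM in A-C and 9.15 ± 1.37 TPM in D-F, which places the coding levels of KAT2A and KAT2B closer in D-F than their gene totals do.

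The transcripts of CREBBP, KAT6A, KAT6B and KAT7 were divided unevenly between replicates. KAT6A-202, which passed between line sets, ranged from 8.64 to 15.9 TPM in the D-F low dose group, and KAT6A-203 from 0 to 10.3 TPM. They share 99.7% and 99.4% of their 31-base words with other KAT6A transcripts. CREBBP-206 held 9.55 and 14.8 TPM in the A-C controls, but in the D-F high dose group it was 0 in a replicate and 10.96 TPM in the other. KAT6B-201 and KAT6B-202, 2 coding transcripts that share 89.1% and 99.2% of their 31-base words with other KAT6B transcripts, exchanged places between the replicates at 200 ng/ml in D-F (1.84 and 8.39 TPM, and 0 and 8.55 TPM). KAT7-202 ranged from 3.75 to 11.6 TPM in that group, and all of its words occur in other KAT7 transcripts. KAT5-208 carried 37.7% of KAT5 in the A-C controls and 61.0% at 200 ng/ml in A-C, but its controls were at 14.0 and 37.2 TPM.

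The 5 genes whose values were most like those of KAT2A over the 12 samples, after the mean of each line set was removed from log2 CPM (depth-scaled counts), were ADH5, CTPS1, DENND4B, FANCA and SLC25A38. Their Pearson r was 0.972, 0.912, 0.895, 0.892 and 0.885 among 12827 genes of at least 5 TPM. The samples share their doses and libraries, and r is given as a description.

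The partners of the acetyltransferases were taken from lists of complex subunits. Of 27 SAGA and ATAC subunits, partners of KAT2A and KAT2B, 3 passed at 200 ng/ml, 2 higher and 1 lower, with a list median of 0.03 (log2) beside −0.01 over all genes. Here and for the lists below, 9.55% of all genes passed at 200 ng/ml and 46.4% differed between the controls. The 3 subunits are 11.1% of the list, near the first of these shares. YEATS2, the ATAC subunit that reads acetylated H3 lysine 27, had 47.6 and 48.4 TPM in the A-C controls and 64.9 and 57.9 TPM at 200 ng/ml, and went from 25.0 and 21.5 TPM to 51.8 and 52.7 TPM in D-F. Its log2 fold change was 0.80 in both sets together (SE 0.07, edgeR adjusted p = 6.7e-05). It was 0.40 in A-C (edgeR adjusted p = 0.034) and 1.21 in D-F (edgeR adjusted p = 5.4e-05). SUPT20H, a SAGA core subunit, rose by 0.40 (SE 0.07, edgeR adjusted p = 0.0086).

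TADA3, an adaptor that SAGA and ATAC share, fell by 0.40 on the log2 scale (SE 0.08, edgeR adjusted p = 0.012). It had 24.3 and 22.4 TPM in the A-C controls and 15.9 and 17.5 TPM at 200 ng/ml, and 89.4 and 92.3 TPM against 75.2 and 73.3 TPM in D-F, without overlap in either set. At baseline 15 of the 27 subunits (55.6%, beside 46.4% of all genes) differed between line sets, 5 higher and 10 lower in D-F, with TADA3 higher (log2 1.82) and YEATS2 (−1.25) and SUPT20H (−1.13) lower.

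Of 17 NuA4/TIP60 subunits, partners of KAT5, 1 (5.88%, beside 9.55% of all genes) passed at 200 ng/ml, the ATPase RUVBL2, which fell by 0.27 on the log2 scale (SE 0.06, edgeR adjusted p = 0.021). At baseline 9 of the 17 differed (52.9%, beside 46.4%), among them ACTL6A (log2 fold change −1.25) and EPC2 (−0.99). Of the 9 BRPF, JADE and ING subunits that serve KAT6A, KAT6B and KAT7, 0 passed at 200 ng/ml, and 2 (22.2%, beside 46.4%) differed at baseline, BRPF1 higher in D-F (1.06) and ING5 lower (−0.85). Of the 12 MSL and NSL subunits around KAT8, 1 (8.33%, beside 9.55%) passed at 200 ng/ml, HCFC1, which fell by 0.48 (SE 0.12, edgeR adjusted p = 0.039), and 7 (58.3%, beside 46.4%) differed at baseline, with PHF20 higher (1.31) and WDR5 lower (−0.72) in D-F. The call of RUVBL2 was lost without the second A-C control, the second A-C high dose sample, either D-F control or the first D-F high dose sample (adjusted p up to 0.086). That of HCFC1 was lost without either A-C control, the second A-C high dose sample, the second D-F control, either D-F low dose sample or the first D-F high dose sample (adjusted p up to 0.13), with the replicate block (0.060), with only the groups compared (0.062) and without line set in the fit (0.27). The medians of these 3 lists at 200 ng/ml were −0.04, 0.00 and 0.07.

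Of 14 other acetyltransferases, 1 (7.14%, beside 9.55% of all genes) passed at 200 ng/ml. NCOA2, a nuclear receptor coactivator, rose by 0.35 (SE 0.07, edgeR adjusted p = 0.015), a call lost without the first A-C control, the second D-F control or the first D-F high dose sample (adjusted p up to 0.068). At baseline 12 of the 14 differed (85.7%, beside 46.4%), with ELP3, of the Elongator complex, lower in D-F (−1.43) and NCOA3 higher (1.33).

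Deacetylases remove the acetyl mark and readers bind it. Of 17 histone deacetylases that passed the filter, out of 18 listed, 2 passed at 200 ng/ml (11.8%, beside 9.55% of all genes). HDAC9, a class IIa deacetylase, rose from 75.6 and 74.3 TPM to 114 and 115 TPM in A-C and from 62.4 and 59.9 TPM to 122 and 115 TPM in D-F (log2 fold change 0.75, SE 0.12, edgeR adjusted p = 0.0043). HDAC5, of the same class, fell by 0.89 on the log2 scale in both sets together (SE 0.14, edgeR adjusted p = 0.0045). In D-F, HDAC5 was at 6.34 and 8.42 TPM in the controls and 6.85 and 6.73 TPM at 200 ng/ml, where its log2 fold change was −0.46 (edgeR adjusted p = 0.23), and in A-C it went from 4.96 and 5.77 TPM to 3.09 and 1.34 TPM (−1.32, edgeR adjusted p = 0.0081). The difference between both responses did not pass (0.86, edgeR adjusted p = 0.16). At baseline 6 of the 17 differed (35.3%, beside 46.4%), with HDAC11 higher in D-F (1.19).

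Of 24 acetyl-lysine readers that passed the filter, out of 25 listed, 7 passed at 200 ng/ml (29.2%, beside 9.55% of all genes), all higher, with a list median of 0.15. SP110 went from 40.4 and 39.8 TPM to 238 and 209 TPM in A-C and from 28.8 and 23.0 TPM to 163 and 146 TPM in D-F (log2 fold change 2.39, SE 0.10, edgeR adjusted p = 4.2e-07). SP100 rose by 2.04 (SE 0.07, edgeR adjusted p = 7.6e-08) and SP140L by 0.91 (SE 0.09, edgeR adjusted p = 0.00018). SP100 and SP110 are nuclear body proteins known as interferon-induced genes, and YEATS2, described above, stands on this list too. All of these are among the 7, and the list was chosen with earlier results of these data known. Its share is therefore not a result about readers as a class. At baseline 15 of the 24 differed (62.5%, beside 46.4%), and CECR2 had 1.55 and 1.77 TPM in the D-F controls but at most 0.0432 TPM in the A-C controls.

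Of 9 genes that supply acetyl-CoA, 1 passed at 200 ng/ml (11.1%, beside 9.55% of all genes). ACLY, ATP citrate lyase, fell by 0.21 (SE 0.06, edgeR adjusted p = 0.049), with an adjusted p of 0.055 under the size factors of DESeq2. The call held without the first A-C control or the first D-F low dose sample and was lost without any other (adjusted p up to 0.16). At baseline 5 of the 9 differed (55.6%, beside 46.4%), with PDHA1 lower in D-F (−0.78) and ACSS1 at 1.87 and 2.36 TPM in the A-C controls but at most 0.0664 TPM in the D-F controls.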

How the data were processed

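RNA of Cal27 and HN30 cells was sequenced by the authors after removal of rRNA, with strand-specific libraries on the HiseqXTen platform. The submitters' processing notes name Trimmomatic 0.36, HISAT2 2.1.0, StringTie 1.3.3b and GRCh38.p10, while the annotation release and whether counting used the strand are not given in the sources used here. The authors deposited estimated counts, as whole numbers not scaled for depth, with TPM and FPKM values for 60099 genes and 201521 transcripts. Deposited TPM was scaled by the authors for length and depth and was used here for levels and shares, and the deposited FPKM was not used. Samples were placed by their titles and the design text, which gives the doses.

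The members and all lists were chosen with earlier results of these data known. Counts were fitted with edgeR 4.0.16 in R 4.3.3 (TMM, filterByExpr, quasi-likelihood test, Benjamini-Hochberg adjustment over 19944 genes or 75876 transcripts, 6 groups in 1 fit), and genes passed at an adjusted p of at most 0.05. SE is the log2 fold change over the square root of F, and intervals are at 95%. With 2 replicates per group the spread is estimated from few samples. DESeq2 1.42.0, RLE size factors, no filter on low counts, the groups compared alone, dose without line set, the replicate number as a block and leaving out each sample were alternatives. The fits were tested on simulated data. Named were all 9 members and their transcripts of at least 20% of the gene's TPM, up to 4 genes a list by size of change at 200 ng/ml (otherwise up to 2 from the controls), the nearest genes of at least 1 TPM and the 5 genes most like KAT2A. Transcript types, exons and sequences came from GENCODE 29, promoters from RefSeq. Tables, exact tests and figures used Python 3.11.15, pandas 2.3.3, numpy 2.4.6 and matplotlib 3.10.9.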

Additional observations from a re-analysis of the deposited data

Results flagged for a closer look

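The response of YEATS2, a subunit of the ATAC complex that also holds KAT2A, differed between the line sets by the test of the difference itself. At 200 ng/ml the log2 fold change was 0.81 higher in D-F than in A-C (SE 0.13, edgeR adjusted p = 0.022), and at 20 ng/ml it was 0.78 higher (SE 0.13, edgeR adjusted p = 0.0498). All treated samples of both sets lay above their controls. The difference was positive in every alternative run, between 0.73 and 0.89 at 200 ng/ml and between 0.69 and 0.85 at 20 ng/ml, but the call was not firm. At 200 ng/ml it was lost without the second A-C control, the second A-C high dose sample, the second D-F control or either D-F high dose sample (adjusted p up to 0.087) and with only the groups compared (0.059). At 20 ng/ml it was lost whichever sample was left out (adjusted p 0.060 to 0.19), and also without the filter on low counts, with the replicate block and with only the groups compared. YEATS2 also started lower in the D-F controls (21.5 and 25.0 TPM) than in the A-C controls (47.6 and 48.4 TPM). No acetyltransferase among the 9 met this test, and groups of 2 samples allow no test for a sample that stands apart from its group.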

How the results depend on the processing

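Of 139 recounts of the members that passed, 127 stayed within 1.5 times the first count. The first count was 0 in each of the 7 comparisons with IFNα, so most of these recounts began from 0. The 5 members that differed between the controls became 3 with the replicate block and 3 with only the 4 control samples, and 2 to 5 when a sample was left out. They became 2 without the first D-F control. They became 3 without any single treated A-C sample, the second D-F low dose sample or either D-F high dose sample. In D-F at 200 ng/ml, 0 members passed at first, 2 with DESeq2 and 1 (KAT2A, adjusted p = 0.036) with the replicate block. The numbers do not pair the samples (correlations of −0.0306 to 0.0479 between same-numbered samples), so the block is a refit alone. Leaving out a sample left 0 members passing in each of the 7 comparisons with IFNα. Of the transcripts, 0 passed at 200 ng/ml, and 1 did without the first D-F high dose sample (CREBBP-206, adjusted p = 0.040), giving 0 to 1 over the samples left out.

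The KAT2A share at 200 ng/ml moved from −1.10 to 0.707 points on counts and lay between −2.99 and 0.785 with a sample left out, the last without the first D-F high dose sample. The EP300 share at 200 ng/ml moved to 3.26 points on coding transcripts and −5.83 to −0.259 with a sample left out. The line difference of the EP300 share was −6.07 on counts (exact permutation p = 0.00926) and −6.66 to −2.94 with a sample left out, and that of KAT2A −25.0 to −22.5. The cause of these moves was not tested. Without line set in the fit, YEATS2 (log2 fold change 0.69, adjusted p = 0.77), DHX58 (2.45, 0.075), HDAC9 (0.74, 0.075), HCFC1 (−0.47, 0.27) and NCOA2 (0.34, 0.87) no longer passed at 200 ng/ml, nor did SUPT20H, TADA3, RUVBL2, HDAC5 and ACLY (each 1.0), all with the same sign. In the comparisons refitted, members had calls to lose only between the controls, where 5 had passed. Of these calls, 21 were lost with a sample left out and 7 in other settings. Over 18 settings KAT2B and EP300 kept theirs in 18, KAT2A in 15, KAT6A in 6 and KAT6B in 5. No call changed sign, whereas values that had not passed could: KAT6A in D-F at 200 ng/ml lay between −0.57 and 0.18 with a sample left out. KAT2B in A-C rests on 26 to 64 counts a sample.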
